A study of Mus musculus with 11 samples.

Results

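The 10 genes described here encode proteins that hold endothelial cells together or sit on their surface: Cldn5, Ocln, Jam2, Esam and Tjp1 of the tight junction, Cdh5 of the adherens junction, Pecam1, Emcn and Plvap of the cell surface, and Egfl7, which endothelial cells secrete. They were chosen by their read counts in Pde2A-/- (KO) against Pde2A+/+ (WT) hearts, because Cldn5 was lower in KO while the other endothelial genes were level or higher. All 10 were among the 55487 gene identifiers in the counts and all 10 passed the filter on low counts, as did 24177 genes in all. Since this difference selected the genes, their values in KO and WT hearts are given as a description without a test.

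RNA was sequenced from whole hearts of 5 KO and 6 WT embryos at E14.5, 1 library per heart. The embryos came from matings of Pde2A heterozygotes of the line B6; 129P2-Pde2A<tm1Dgen>, in which the allele is constitutive, so every cell type of the heart carried it, and no drug was given to these hearts. Embryos of both sexes were used, and the labels give neither the sex nor the litter of a heart. The replicate names of the labels (KO A, B, 14, D and 15; WT 7, 11, 6, 8, H and E) are kept here.

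Endothelial cells line the vessels and, as endocardium, the chambers of the heart. Tight junctions, built from claudins, occludin and JAM-family proteins anchored to ZO-1, limit what passes between neighbouring cells, and adherens junctions, built around VE-cadherin, hold the cells to each other. Claudin-5 is the main claudin of endothelium and is best known for sealing the vessels of the brain. Pde2A breaks down cAMP and cGMP, and cAMP acts on endothelial junctions through protein kinase A and through Epac and Rap1.

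The hearts had 35865537 to 42835382 gene-strand reads each. Values are given as normalized CPM, the counts scaled to a common library size by TMM. Pde2a, the targeted gene, had 0 to 2 counts in each heart, too few to check the genotypes given by the labels. This held for WT hearts too, and the cause was not tested. These counts are therefore not read as the level of Pde2a RNA. WT 7 and WT 11 stood apart by Epcam and Cdh1, 2 of 5 epithelial markers. Epcam was at 15.4 CPM in WT 7 and 16.6 CPM in WT 11, against 0.199 to 1.49 CPM in the other hearts, and Cdh1, the epithelial cadherin, was at 25.0 and 21.7 CPM against 0.261 to 2.29 CPM. The keratins did not all set them apart: Krt8 was highest in WT 7 (89.2 CPM) and WT 11 (30.1 CPM), Krt18 was at 75.9 CPM in WT 7 and 24.3 CPM in WT 11 against 36.9 CPM in KO 15, and Krt19 was highest in KO 15 (116 CPM). The summed level of the 5 markers was 51.0 to 250 CPM in WT hearts and 55.5 to 180 CPM in KO hearts. Calls that changed without these 2 hearts are named beside their lists. Endothelial RNA was followed by 12 other endothelial markers (Kdr, Tek, Tie1 and others). Each had a median of at least 817 counts over the hearts. Their summed level was 1730 to 1940 CPM in KO hearts and 1380 to 1630 CPM in WT hearts, so the groups did not overlap. By edgeR's quasi-likelihood test, 4 of the 12 were higher and 0 lower at an adjusted p of 0.05. Over all genes tested, 8.93% were higher and 5.67% lower. Without WT 7 and WT 11, 3 of the 12 were higher, where 1486 of all genes were. All 12 also belong to the 33 other endothelial surface genes listed below, so the 2 results share data. These markers do not show which cells made the RNA of the genes described here. In a whole heart, fewer cells of a type and less RNA per cell cannot be told apart.

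Cldn5 (ENSMUSG00000041378) lies on chromosome 16 from 18776847 to 18778262 on the plus strand of GRCm38, as a single block of 1416 exon bases, and no other annotated gene shares these bases. The RefSeq promoter table held 5 of the 10 genes (Cldn5, Ocln, Tjp1, Emcn and Egfl7). The 250 bases before the start of Cldn5, the gene that was lower in KO, are shown beside those of Emcn, the one of these 5 whose KO and WT values stood apart in the other direction. They are written 5′ to 3′ in lower case, from GRCm38.p6, plus strand, at chr16:18776597-18776846 and chr3:137340828-137341077. Capitals mark AGGAAG, a core that ETS factors bind, or its reverse complement CTTCCT.

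Cldn5: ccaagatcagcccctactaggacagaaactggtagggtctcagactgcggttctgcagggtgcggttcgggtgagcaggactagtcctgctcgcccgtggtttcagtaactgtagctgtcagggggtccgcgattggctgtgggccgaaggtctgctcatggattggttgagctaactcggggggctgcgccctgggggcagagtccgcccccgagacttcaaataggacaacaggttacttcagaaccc
Emcn: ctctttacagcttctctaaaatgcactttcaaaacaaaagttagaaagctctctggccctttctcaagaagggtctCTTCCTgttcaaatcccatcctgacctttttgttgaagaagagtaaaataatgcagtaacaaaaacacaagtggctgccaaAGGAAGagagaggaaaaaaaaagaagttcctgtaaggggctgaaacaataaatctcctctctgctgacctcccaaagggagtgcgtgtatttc

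The Emcn promoter held 2 ETS matches, beginning 174 and 93 bases before the start, and the Cldn5 promoter held 0, where 29.6% of the 32536 different promoters in the table held at least 1. The 250 bases of Cldn5 also lacked the letters ACAAT (bound by SOX factors, in 27.4% of promoters), GTAAACA (FOXO, 3.17%), CACCTG (the E-box of Snail factors, 17.3%), ACGTG (HIF, 16.7%) and TGACG (the CRE half-site, 17.9%) on either strand, while those of Emcn held ACAAT once. The GC content was 59.6% for Cldn5 and 40.8% for Emcn, with a median of 52.4% over all promoters. These matches describe the letters of the windows only.

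Cldn5 was at 13.9, 12.8, 13.7, 10.2 and 12.0 CPM in the hearts KO A, B, 14, D and 15, and at 20.4, 18.3, 22.9, 17.8, 25.7 and 25.1 CPM in WT 7, 11, 6, 8, H and E. Every KO heart was below every WT heart, with KO D the lowest and WT H the highest. The mean was 12.5 ± 1.52 CPM in KO (SD, n = 5) and 21.7 ± 3.38 CPM in WT (SD, n = 6), a log2 fold change of −0.79 (SE 0.11), or 1.73-fold lower in KO. These values rest on 367 to 1047 counts per heart. Leaving out any 1 heart gave log2 fold changes between −0.84 and −0.73, and leaving out WT 7 and WT 11 together gave −0.87.

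**Figure D1:**
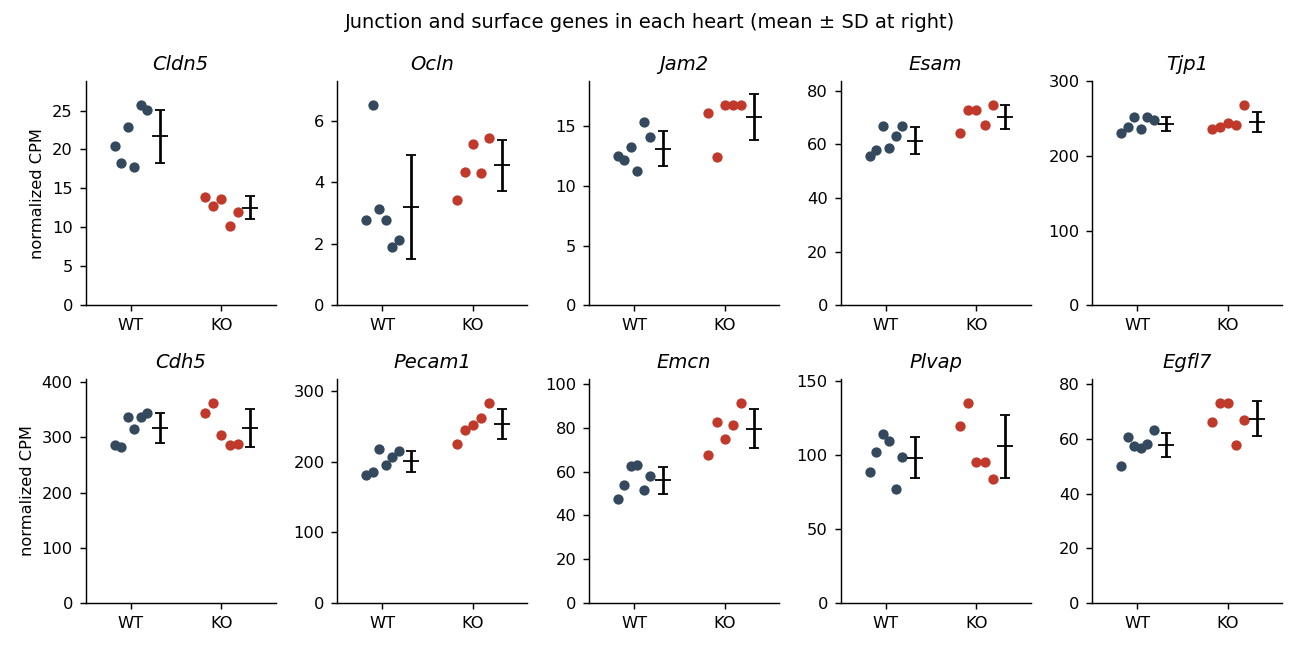
Normalized CPM (y axis, from 0) of the 10 genes in the 6 WT (dark) and 5 KO (red) hearts, 1 point per heart, with the mean ± SD of each group to the right of its points. The KO hearts lie between 10.2 and 13.9 CPM for Cldn5, below all WT hearts, and above all WT hearts for Pecam1 and Emcn.

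The other tight junction genes did not share the direction of Cldn5. Ocln (ENSMUSG00000021638), which encodes occludin, was the least abundant of the 10 at 4.55 ± 0.821 CPM in KO (SD, n = 5) and 3.21 ± 1.69 CPM in WT (SD, n = 6), with a log2 fold change of 0.51 (SE 0.27). Its KO hearts were at 3.42, 4.34, 5.25, 4.30 and 5.45 CPM (A, B, 14, D and 15), and its WT hearts at 2.76, 6.52, 3.15, 2.77, 1.89 and 2.14 CPM (7, 11, 6, 8, H and E). WT 11, 1 of the 2 hearts with high Epcam and Cdh1, was above every other heart, and the remaining 5 WT hearts were below every KO heart. Without WT 11 the log2 fold change of Ocln was 0.84, and without WT 7 and WT 11 it was 0.87. The part of the epithelial RNA in these values was not tested.

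Jam2 (ENSMUSG00000053062), an immunoglobulin-like adhesion protein of the tight junction, was at 16.1, 12.4, 16.8, 16.8 and 16.8 CPM in KO A, B, 14, D and 15. Its WT hearts were at 12.5, 12.2, 13.3, 11.3, 15.4 and 14.1 CPM in 7, 11, 6, 8, H and E. KO B was within the WT range and the other 4 KO hearts were above it. The log2 fold change was 0.26 (SE 0.10), and without KO B it was 0.34.

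Esam (ENSMUSG00000001946), a related adhesion protein of endothelium and platelets, was at 70.3 ± 4.42 CPM in KO (SD, n = 5) and 61.5 ± 4.87 CPM in WT (SD, n = 6). Its log2 fold change was 0.19 (SE 0.06), and 4 of the 5 KO hearts were above the highest WT heart. Tjp1 (ENSMUSG00000030516) encodes the scaffold ZO-1 and lies 36.1 Mb from Pde2a on chromosome 7. It was at 236 to 268 CPM in KO and 231 to 252 CPM in WT, the narrowest spread of the 10 relative to the mean in both genotypes (coefficient of variation 5.22% and 3.65%), with a log2 fold change of 0.01 (SE 0.05).

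Cdh5 (ENSMUSG00000031871), which encodes VE-cadherin, the cadherin of endothelial adherens junctions, had the same mean in both genotypes. Its KO hearts were at 345, 363, 304, 286 and 289 CPM (A, B, 14, D and 15) and its WT hearts at 286, 282, 337, 315, 337 and 345 CPM (7, 11, 6, 8, H and E). The groups overlapped over nearly their whole range, with a mean of 317 ± 34.7 CPM in KO (SD, n = 5) and 317 ± 27.2 CPM in WT (SD, n = 6) and a log2 fold change of 0.00 (SE 0.08). Set against Cdh5 within each heart, the CPM of Cldn5 was 3.5% to 4.5% of that of Cdh5 in KO hearts and 5.7% to 7.6% in WT hearts, again without overlap.

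The surface genes Pecam1 and Emcn were higher in every KO heart than in any WT heart. Pecam1 (ENSMUSG00000020717), the platelet and endothelial adhesion molecule CD31, was at 225, 246, 252, 263 and 284 CPM in KO A, B, 14, D and 15, and between 182 and 218 CPM in WT hearts (median 202 CPM). Its log2 fold change was 0.34 (SE 0.07). Emcn (ENSMUSG00000054690) encodes endomucin, a sialomucin of capillary, venous and endocardial endothelium. It was at 67.8, 82.6, 74.9, 81.2 and 91.5 CPM in KO A, B, 14, D and 15, and between 47.5 and 62.9 CPM in WT hearts (median 55.9 CPM), with a log2 fold change of 0.50 (SE 0.09). KO A was the lowest KO heart and KO 15 the highest for both genes.

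Plvap (ENSMUSG00000034845) encodes the protein that forms the diaphragms of endothelial fenestrae and caveolae. Its KO hearts were at 119, 135, 94.8, 95.0 and 83.7 CPM (A, B, 14, D and 15), and its WT hearts lay between 76.7 and 114 CPM. KO A and KO B were above all WT hearts and the other 3 KO hearts were within the WT range, so that the log2 fold change of 0.10 (SE 0.13) covers hearts that differed in both directions. The 2 KO hearts with the most Plvap also had the highest summed level of 4 endocardial markers (Npr3, Nfatc1, Cytl1 and Hapln1). It was 353 CPM in KO A and 354 CPM in KO B against 252 to 328 CPM in the other KO hearts. The summed level of 5 coronary capillary markers was lowest in these 2 hearts, 149 CPM in each. Fabp4 had the highest mean of these 5, 111 CPM over all hearts. Aplnr, another of the 5, did not share this order. It was at 40.9 CPM in KO A and 28.8 CPM in KO B against 21.7 to 32.6 CPM in the other KO hearts. The part of the mix of endothelial cells in the values of Plvap was not tested.

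Egfl7 (ENSMUSG00000026921), a secreted protein that endothelial cells deposit around forming vessels, was at 67.5 ± 6.33 CPM in KO (SD, n = 5) and 57.8 ± 4.41 CPM in WT (SD, n = 6). Its log2 fold change was 0.22 (SE 0.07), and 4 of 5 KO hearts were above the WT range. Egfl7 is the only one of the 10 whose exons share bases with other annotated genes, 9.41% of them on the same strand with Gm20532 and Mir126a, and a read lying on more than 1 gene was counted on none. Mir126a, whose hairpin lies at chr2:26591357-26591429 on the plus strand, had 0 counts over the 11 hearts in these poly(A) libraries. A read on the bases that Mir126a shares with Egfl7 was counted on neither gene, so this 0 does not measure the RNA of Mir126a. The product of Mir126a, a microRNA known for its part in vessel integrity, is shown because it is made from the Egfl7 locus, with the seed (bases 2 to 8) in capitals.

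mmu-miR-126a-3p: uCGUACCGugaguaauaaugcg

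**Figure D2:**
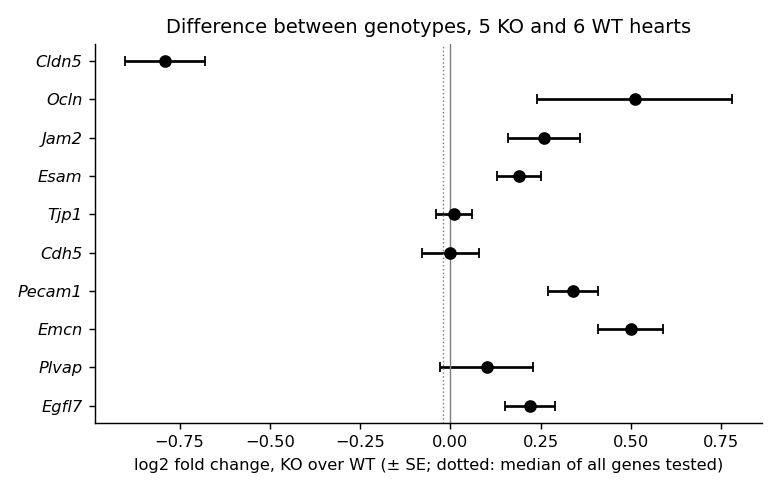
Log2 fold change of KO over WT (x axis) for each of the 10 genes, with the standard error as bars. The dotted line marks the median of all genes tested, −0.02. Cldn5 lies at −0.79, and the other 9 between 0.00 and 0.51.

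Of the 10 genes, 3 were past an adjusted p of 0.05 as higher in KO (Pecam1, Emcn and Egfl7), where 8.93% of all genes tested were, and 1 as lower (Cldn5), where 5.67% of all genes tested were. Every KO heart lay above every WT heart for 2 of the genes (5.38% of all genes tested) and below for 1 (3.11%). The same contrast chose the genes, so nothing is read from these counts. Egfl7 was past the threshold in 3 of the 11 fits that left out 1 heart, and Esam, which missed it, was past it in 2 of them. Without WT 7 and WT 11 the 3 higher genes were Pecam1, Emcn and Ocln. The median log2 fold change of the 10 genes was 0.21, against −0.02 over all genes tested.

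Levels per length of exon gave an approximate order of the genes. The length is that of all annotated exons of a gene together, so a gene with long unused exons can come out too low. Egfl7 also lacked the reads on bases it shares with other genes. In WT hearts Cdh5 was the highest at 75.4 ± 6.48 CPM per kb (SD, n = 6), followed by Plvap at 49.4 ± 6.96 CPM per kb. Pecam1 at 32.2 ± 2.45 and Tjp1 at 31.1 ± 1.13 CPM per kb differed by less than their spread. Esam followed at 21.4 ± 1.70 CPM per kb, and Egfl7 at 16.1 ± 1.23 and Cldn5 at 15.3 ± 2.39 CPM per kb again differed by less than their spread. Emcn was at 10.4 ± 1.14, Jam2 at 2.17 ± 0.241 and Ocln at 0.759 ± 0.400 CPM per kb. In KO hearts Cldn5 was at 8.85 ± 1.07 CPM per kb (SD, n = 5), below Emcn at 14.7 ± 1.64 CPM per kb. Tjp1 is made by many cell types beside endothelium, so its level is shared among the cells of the heart.

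Heart by heart, the deviation of Cldn5 from the WT mean on the log2 CPM scale was −0.63, −0.74, −0.64, −1.07 and −0.84 in KO A, B, 14, D and 15, while the mean deviation of the other 9 genes was 0.18, 0.29, 0.27, 0.20 and 0.31. In WT hearts Cldn5 ranged from −0.27 to 0.26 and the mean of the other 9 from −0.14 to 0.10. The gap between Cldn5 and the other 9 was thus −0.80 to −1.27 in KO hearts and −0.32 to 0.32 in WT hearts.

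**Figure D3:**
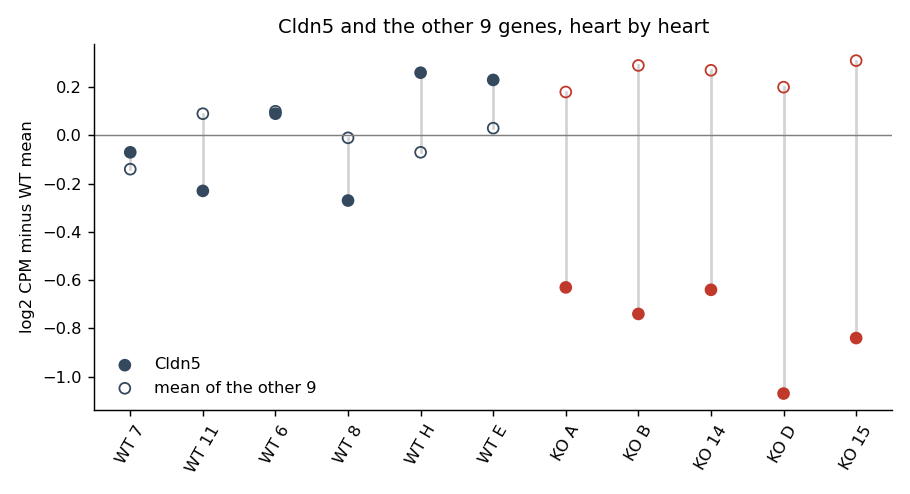
Log2 CPM minus the WT mean (y axis) for Cldn5 (filled) and the mean of the other 9 genes (open) in each WT (dark) and KO (red) heart, with a line joining the 2 values of a heart. Cldn5 lies between −0.63 and −1.07 in KO hearts, and the mean of the other 9 between 0.18 and 0.31.

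Replicate names in letters and in numbers mixed within both genotypes, with 3 letters in KO and 2 in WT, and the labels do not say what the style of a name stands for. Within hearts named by a letter the log2 fold change of Cldn5 was −1.05, and within those named by a number it was −0.63. In the same order, Plvap had log2 fold changes of 0.40 and −0.21, Ocln of 0.99 and 0.49, Jam2 of 0.03 and 0.44, Esam of 0.06 and 0.31, and Pecam1 of 0.20 and 0.45. For Emcn both values lay between 0.49 and 0.55.

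Whether Cldn5 follows the other endothelial genes from heart to heart was examined by the variation among the WT hearts, since the choice of genes used the difference between the genotypes. Across the 6 WT hearts Cldn5 and the mean of the other 9 genes had a Pearson's r of −0.08 (exact permutation p = 0.88, two-sided) and a Spearman's rho of −0.09 (exact permutation p = 0.92), and r was −0.49 without the 2 hearts farthest from the median of the other genes. The sign was not stable, since r was 0.16 on a variance stabilized scale and 0.47 with the median of the 9 genes in place of the mean. Of the 10 relations tested, 1 was past the adjusted threshold. Cldn5 and Jam2 had r = 0.95 (exact permutation p = 0.00278, adjusted p = 0.03) and rho = 1.0 (exact permutation p = 0.00278, adjusted p = 0.03), and this p is the smallest that 6 hearts allow. Without the 2 hearts farthest from the median of Jam2, r was 0.98. WT 8 was the lowest and WT H the highest heart for both genes. The summed level of the 5 coronary capillary markers was 152 CPM in WT 8, 168 to 176 CPM in WT 11, 6 and 7, and 233 and 234 CPM in WT H and E. The part of the mix of endothelial cells in this relation was not tested. In KO hearts, 5 in number and too few for such a test, KO D had the least Cldn5 at 10.2 CPM and 16.8 CPM of Jam2, while KO B had the least Jam2 at 12.4 CPM.

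The relations of Cldn5 with Tjp1 (r = 0.80), Cdh5 (r = 0.77), Esam (r = 0.77) and Pecam1 (r = 0.74) did not pass, each with an exact permutation p adjusted to 0.20. Ocln had r = −0.69 with the same adjusted exact permutation p of 0.20, Plvap r = −0.48 with an adjusted exact p of 0.46, Egfl7 r = 0.26 with an adjusted exact p of 0.85 and Emcn r = −0.12 with an adjusted exact p of 0.88. The mean over the 9 therefore joined genes with positive and negative r.

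**Figure D4:**
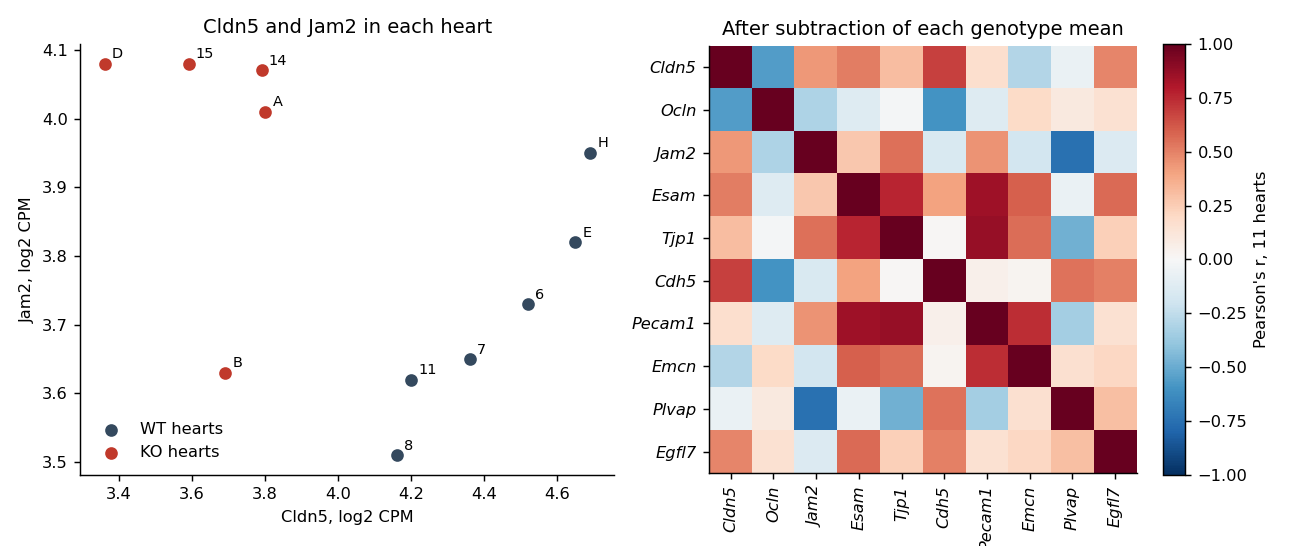
Left, log2 CPM of Jam2 (y axis) against log2 CPM of Cldn5 (x axis), 1 point per heart with its replicate name, WT dark and KO red; the 6 WT hearts have the same order for both genes. Right, Pearson's r between the 10 genes over 11 hearts after each genotype mean was subtracted, from −0.75 (Jam2 and Plvap) to 0.87 (Pecam1 and Tjp1).

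After each genotype's mean was subtracted, the 45 pairs of genes had a median r of 0.17 over the 11 hearts, and 30 were above 0. These r are descriptions, since all genes of a heart share its library and its mix of cells. No median r of other gene pairs was set beside that of the 45. Pecam1 was close to Tjp1 (r = 0.87), Esam (r = 0.85) and Emcn (r = 0.74), and Esam to Tjp1 (r = 0.76). Cldn5 was closest to Cdh5 (r = 0.68) and farthest from Ocln (r = −0.56), with a median r of 0.31 to the other 9. With Jam2, the gene it followed across WT hearts, Cldn5 had r = 0.43 here. In the order of 11344 genes by r with Cldn5, Cdh5 was at rank 268 and Jam2 at rank 1818. Jam2 and Plvap ran against each other (r = −0.75). Among 11344 genes the 5 outside the list with the pattern most like that of Cldn5 were Mapkbp1 (r = 0.93), Sox18 (r = 0.92), Pcdh12 (r = 0.92), Ankrd24 (r = 0.91) and Pcdh1 (r = 0.91). In that order, their log2 fold changes of KO over WT were −0.04, −0.18, −0.33, −0.08 and −0.57. Sox18 is a transcription factor of endothelium and Pcdh12 a protocadherin of endothelial contacts. The 5 most like Cdh5 were Prkaca (r = 0.96), and Mylk3, Cox6b1, Sdhc and Crip2 (each r = 0.95). Whether the patterns of Cldn5 and Cdh5 follow a cell type was not tested.

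The genes near Cldn5 on chromosome 16 were read next. Of the 5 tested protein-coding genes on each side, from 18498713 to 18970309, 0 were higher and 1 was lower at an adjusted p of 0.05 by edgeR's quasi-likelihood test. Over all genes tested, 8.93% were higher and 5.67% lower. At an unadjusted p under 0.05 there were 0 higher and 5 lower of the 10 neighbours. The share of all genes at that p is not given here, so nothing is read from these numbers. DESeq2 called 0 higher and 3 lower, where it called 2791 and 2354 of all genes. The gene lower by edgeR, the histone chaperone Hira, had a log2 fold change of −0.36 (SE 0.11, adjusted p = 0.0473). All 10 had a log2 fold change below 0, from −0.58 for Tbx1 (SE 0.48, adjusted p = 0.455) to −0.08 for Ufd1 (SE 0.07, adjusted p = 0.47). The median over all genes tested was −0.02. Some of the 10 overlap each other, so they are not separate loci. Rtl10 lies within the span of Gnb1l, and Gm49601 overlaps Sept5, each pair on the same strand. Tbx1, Gm49601, Sept5 and Rtl10 were low, at a WT mean of 1.08, 0.309, 1.66 and 2.02 CPM. Cdc45, whose nearer end, the 3′ end, is 3.6 kb from the start of Cldn5, was at −0.14 (SE 0.06, adjusted p = 0.133).

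Beyond the 10 genes, 105 other junction and surface genes in 5 lists were tested in the same fit. By edgeR's quasi-likelihood test, 24 were higher and 5 lower in KO at an adjusted p of 0.05, where 8.93% and 5.67% of all genes tested were, and without WT 7 and WT 11 the numbers were 19 and 3. Their median log2 fold change was 0.08, against −0.02 over all genes tested.

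Of 22 other claudins 15 were tested, 7 of them at a mean of at least 1 CPM. Of the 15, 1 was higher and 1 lower, where 8.93% and 5.67% of all genes tested were, and 4 had a log2 fold change above 0. Cldn13 rose from 0.455 ± 0.310 CPM in WT (SD, n = 6) to 8.56 ± 1.80 CPM in KO (SD, n = 5), a log2 fold change of 4.21 (SE 0.38, adjusted p = 1.5e-05 by edgeR). It is a claudin of mouse blood-forming tissue, and 4 of 7 erythroid markers (Slc4a1, Klf1, Epb42 and Ermap) were also higher, while Alas2, Hba-a1 and Hbb-bs were not past the threshold. The summed level of the 7 was 2500 to 4320 CPM in KO and 2080 to 8630 CPM in WT. The part of blood cells in Cldn13 was not tested. Cldn1, a claudin of epithelia, fell from 3.32 ± 1.45 CPM in WT (SD, n = 6) to 1.84 ± 0.433 CPM in KO (SD, n = 5), a log2 fold change of −0.85 (SE 0.26, adjusted p = 0.0465 by edgeR). The median over the 15 claudins was −1.57, and without WT 7 and WT 11 it was 0.49 over 12 claudins. WT 11 alone held 9.70 CPM of Cldn6, against at most 0.808 CPM in any other heart. Cldn1 was past the threshold in 5 of 19 alternatives and not without these 2 hearts, where Cldn3 was higher together with Cldn13 (log2 fold change 1.51, SE 0.30, adjusted p = 0.0107 by edgeR). Cldn12, the most abundant of these claudins at 30.5 CPM in KO and 27.7 CPM in WT, had a log2 fold change of 0.14 (adjusted p = 0.29 by edgeR).

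Among 15 partners of the tight junction 1 was higher, 1 lower and 13 not past the threshold, with a median of 0.00. Over all genes tested, 8.93% were higher and 5.67% lower. Without WT 7 and WT 11, Tjp3, a relative of ZO-1, was higher beside F11r (log2 fold change 0.88, SE 0.25, adjusted p = 0.0466 by edgeR). F11r, which encodes JAM-A, a relative of Jam2, rose to 83.2 ± 10.7 CPM in KO (SD, n = 5) from 65.4 ± 3.73 CPM in WT (SD, n = 6), a log2 fold change of 0.35 (SE 0.08, adjusted p = 0.0119 by edgeR), and its KO hearts were all above its WT hearts. Pard6g, of the polarity complex, fell by 0.34 on the log2 scale (SE 0.10, adjusted p = 0.0451 by edgeR) and was past the threshold in 9 of 19 alternatives, not in the one without WT 7 and WT 11. Of 22 genes of the adherens junction and its regulators, 3 were higher, 2 lower and 17 not past the threshold, beside the same 8.93% higher and 5.67% lower over all genes. Arhgap29 and Rasip1, which act with Rap1 at endothelial junctions, had log2 fold changes of 0.44 (adjusted p = 0.0204) and 0.21 (adjusted p = 0.0472), and Nectin2 of 0.32 (adjusted p = 0.0343) by edgeR. None of these 3 was past the threshold without WT 7 and WT 11, and over 19 alternatives Arhgap29 was past it in 17 and Nectin2 in 11. Plekha7 and Nectin3 fell by 0.26 and 0.24 on the log2 scale (adjusted p = 0.00486 and 0.0103 by edgeR), and they were past it with and without those hearts. Plekha7 lies on chromosome 7 from 116123485 to 116308376, nearer to Pde2a (from 101421691 to 101512827) than Tjp1 does. The part of its position in this value was not tested.

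**Figure D5:**
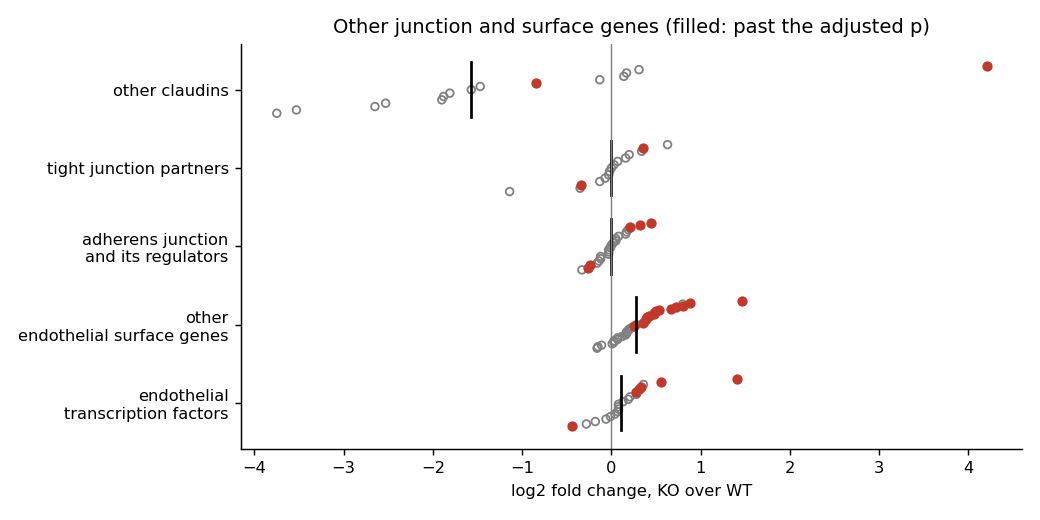
Log2 fold change of KO over WT (x axis) of the 105 other genes in 5 lists, 1 point per gene, filled red where the adjusted p was under 0.05, with a black bar at the median of each list. The filled points of the other endothelial surface genes all lie above 0, and the most distant point is Cldn13 at 4.21.

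Of 33 other endothelial surface genes 14 were higher and 0 lower, where 8.93% and 5.67% of all genes tested were, with a median log2 fold change of 0.28 and 30 of 33 above 0. At an unadjusted p under 0.05 edgeR also had 0 lower, as had DESeq2. The share of all genes at that p is not given here. DESeq2 called 19 higher, where it called 2791 of all genes. By edgeR without WT 7 and WT 11, 11 were higher, where 1486 of all genes were. Icam1, which leukocytes bind on activated endothelium, rose to 28.7, 34.6, 51.6, 63.9 and 63.8 CPM in KO A, B, 14, D and 15 from 13.7 to 22.6 CPM in WT, a log2 fold change of 1.46 (SE 0.20, adjusted p = 0.000434 by edgeR). Vwf, the carrier of clotting factor stored in endothelium and platelets, rose by 0.80 on the log2 scale (SE 0.15, adjusted p = 0.00546 by edgeR). Flt1, a receptor for VEGF, and Stab1, a scavenger receptor of sinusoidal endothelium and macrophages, rose by 0.72 (SE 0.13, adjusted p = 0.00389) and 0.67 (SE 0.08, adjusted p = 0.00017) by edgeR. The other 10 that rose were Eng, Vcam1, Selp, Procr, Clec14a, Cd93, Flt4, Adgrf5, Calcrl and Mmrn2, of which Selp, Procr and Cd93 were not past the threshold without WT 7 and WT 11. Of 7 macrophage markers 6 were also higher (Csf1r, C1qa and others), where 8.93% of all genes tested were. Their summed level was 177 to 223 CPM in KO and 90.3 to 142 CPM in WT. Of 5 platelet markers 1 was higher (Ppbp) and 4 were not past the threshold, beside the same 8.93%. Their summed level was 19.1 to 29.6 CPM in KO and 11.9 to 20.1 CPM in WT. Without WT 7 and WT 11, 2 platelet markers were higher. The part of macrophages and platelets in Icam1, Vwf, Stab1, Pecam1 and the others was not tested. Aplnr, outside this list and 1 of 5 coronary capillary markers, fell from 45.4 ± 4.22 CPM in WT (SD, n = 6) to 29.7 ± 7.52 CPM in KO (SD, n = 5). Its KO hearts were all below its WT hearts, with a log2 fold change of −0.61 (SE 0.13, adjusted p = 0.0112 by edgeR). It was past the threshold in 19 of 19 alternatives, and the other 4 capillary markers were not past it in the fit of all hearts.

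Of 20 transcription factors of endothelium 5 were higher, 1 lower and 14 not past the threshold, where 8.93% of all genes tested were higher and 5.67% lower. Sox17, a factor of arterial endothelium, fell from 10.7 ± 1.54 CPM in WT (SD, n = 6) to 7.85 ± 0.852 CPM in KO (SD, n = 5), a log2 fold change of −0.44 (SE 0.11, adjusted p = 0.0202 by edgeR). Of the related factors, Sox7 rose by 0.33 (SE 0.07, adjusted p = 0.0103 by edgeR) and Sox18, whose pattern among hearts was close to that of Cldn5, had a log2 fold change of −0.18 that was not past the threshold in the fit of all hearts or in any of its 19 alternatives. Tal1 and Lmo2, which endothelium shares with blood-forming cells, rose by 1.41 (SE 0.09, adjusted p = 2.32e-06) and 0.56 (SE 0.08, adjusted p = 0.000485) by edgeR, and Foxo1 and Ets2 by 0.28 and 0.31 (adjusted p = 0.00538 and 0.0328). Without WT 7 and WT 11, 4 factors were higher and 1 lower, where 1486 and 744 of all genes were. Ets2 was not past the threshold there.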

How the data were processed

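Hearts of 5 KO and 6 WT embryos were sequenced as stranded poly(A) libraries from single-end reads. The authors mapped them to GRCm38 with STAR and deposited raw read counts per gene for each heart, without normalization or filtering. The STAR version and the gene annotation are not given in the sources used here. The gene-strand counts were used, and 19.6% to 22.4% of the reads lay on no single gene. Of 55487 identifiers 55227 were named by GENCODE M21.

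The filter asked for a sum of 10 counts or more over the 11 hearts. Counts were compared by the quasi-likelihood test of edgeR 4.0.16 (R 4.3.3) with TMM scaling and Benjamini-Hochberg adjustment over all 24177 genes, and the threshold for a call was 0.05. Log2 CPM used a prior count of 2. Calls were tested on simulated data. The p-values set the difference between the genotypes against the spread between hearts of 1 genotype. For each of 25 pairs of hearts of 1 genotype, the squared difference relative to that of counting was averaged over genes well counted in all hearts. The smallest of these averages was 17.9, which is not a lower limit for a single gene. Motifs were matched on both strands of the RefSeq promoters.

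The 10 genes and all lists were chosen with earlier results of these data known. The result of 1 marker gene is not reported here. Named beside them are up to 4 called genes of each list with the largest change at a mean of at least 1 CPM, the neighbours of Cldn5 and the 5 genes most like Cldn5 or Cdh5 at a mean of at least 5 CPM. Rasip1, Tjp3, Cldn3, Cldn6, Cldn12, Sox18 and the remaining called genes were named after their values were seen. Alternatives were DESeq2 1.42.0, its size factors, other filters, counts of both strands together, removal of the globin genes, a covariate for the naming style, each heart left out and, added after the data were seen, WT 7 and WT 11 left out.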

Additional observations from a re-analysis of the deposited data

Results flagged for a closer look

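In 20 groups of hearts (10 genes in 2 genotypes), 3 hearts stood apart from the rest of their group by the gap to the nearest heart, where chance gives about 1 in 20. Ocln in WT 11 was at 6.52 CPM against 3.15 CPM in the next WT heart, a gap of 0.73 of the range of the WT hearts. Tjp1 in KO 15 was at 268 CPM against 244 CPM in the next KO heart, a gap of 0.76 of the range. Jam2 in KO B was at 12.4 CPM against 16.1 CPM, a gap of 0.83 of the range. WT 11 was also 1 of the 2 hearts with high Epcam and Cdh1, and the part of this in Ocln was not tested.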

How the results depend on the processing

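Cldn5 stayed below 0 under all alternatives and with each heart left out, in the contrast that chose it. DESeq2 called 2354 genes lower in KO against 1372 by edgeR. Leaving out each heart in turn gave 1288 to 2887 genes higher and 414 to 2165 lower in KO, and among the 105 other junction and surface genes 2 to 6 lower. Those lower numbered 3 with the naming style as a covariate and 3 without WT 7 and WT 11, which left 744 genes lower in KO. The r of Cldn5 with the mean of the other 9 genes across WT hearts was 0.16 after the variance stabilizing transformation, 0.47 with the median in place of the mean, and −0.29 to 0.20 with each WT heart left out; the cause was not tested. No paired analysis was possible because the genotypes share no replicate names. Ocln had 76 to 240 counts per heart, the fewest of the 10 genes.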
